A study of Mus musculus with 300 samples.

Results

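Kidneys of mice dosed by mouth with WY14643 were compared with kidneys of vehicle-dosed mice on 3 days of treatment. WY14643 is a synthetic agonist of PPAR-alpha, a nuclear receptor. The compared arrays were chosen by their labels: 15 kidney arrays of mice given 10 mg/kg WY14643, 5 on each of days 4, 8 and 15, and 30 kidney arrays of mice given vehicle, 10 on each of those days. They are 45 of the 75 kidney arrays and of the 300 arrays of the series, which also holds liver, heart and skeletal muscle of the same mice. The other kidney arrays came from mice given 10 mg/kg GW501516, a PPAR-delta agonist, or 10 mg/kg rosiglitazone, a PPAR-gamma agonist, with 5 mice a day each. Each array was 1 mouse. Strain, sex and age were not given in the sources used here, and the design text spells the compound as WY16453.

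Levels are deposited log2 intensities, so a difference of 1 is a doubling. Sizes are log2 changes, WY14643 minus vehicle of the same day, averaged over the 3 days with equal weight unless a day is named, with standard errors. Calls were made in limma, whose moderated test ran across 18193 genes, where the Benjamini-Hochberg adjusted p fell below 0.05. The verbs "rose" and "fell" are kept for called genes. A level is the brightness of 1 probe set and was not compared between genes.

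PPAR-alpha pairs with a retinoid X receptor on DNA elements built of a repeated short site, and fatty acids and fibrate drugs are its known ligands. In liver it is known as the switch for fatty acid breakdown during fasting, acting on enzymes of mitochondria, peroxisomes and the microsomal omega-oxidation pathway. The kidney's proximal tubule, which carries most of the filtered load, runs largely on fatty acid oxidation and is a known site of PPAR-alpha expression. The receptor's own gene, Ppara, was at a mean log2 level of 8.52 over the kidney arrays and was not called (-0.16 ± 0.08, adjusted p = 0.484, limma).

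The tissue matched its label: 18 proximal tubule markers sat at a median intensity percentile of 98.6, and their mean level ran over 11.9 to 12.3 in WY14643 kidneys and 12 to 12.3 in vehicle kidneys. Among the WY14643 and vehicle arrays 1 stood apart, WY14643 day 4 replicate 2. Its 25 pancreatic acinar markers averaged 10.5, against at most 4.36 in the other WY14643 kidneys and at most 4.56 in vehicle kidneys. Its level of Cpb1, a pancreatic carboxypeptidase, was 11.5, against at most 2.07 in the other WY14643 kidneys and 2.56 in vehicle kidneys. Its median correlation with its own group was 0.982. That array also had the highest neutrophil marker mean (5.57, against at most 4.07 in vehicle kidneys), and it had the highest level of several PPAR targets given below. The counts of called genes and many of the gene results are also given without it. The pancreatic acinar list itself had 0 of 25 genes called. Kidney RNA was measured in bulk, so fewer cells of a type and less RNA per cell cannot be told apart.

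Among the other kidney arrays GW501516 day 8 replicate 1 stood farthest from its group, with a median correlation of 0.924. Its loop of Henle markers averaged 9.03, against at least 10.2 in the other 74 kidney arrays, its podocyte markers 6.25 against at least 7.36, and its endothelial markers 6.75 against at least 8.05. It does not enter the sizes of WY14643 minus vehicle, but it enters the spread that all 12 groups share, so it bears on how many genes were called.

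Averaged over the 3 days, 316 of 18193 genes were called (1.74%), with 168 higher (0.923%) and 148 lower (0.813%) in WY14643 kidneys. Changes were mostly small: 45 called genes (0.247%) reached 1.5-fold, 34 of them higher and 11 lower. The median over all genes was -0.0029. Without day 4 replicate 2, 222 genes were called (1.22%), 127 higher (0.698%) and 95 lower (0.522%). Of the 316, 207 were called in both fits, all with the same sign, and 300 had the same sign on all 3 days. Without GW501516 day 8 replicate 1 the sizes were the same and 619 genes were called (3.4%), 296 higher and 323 lower, among them all of the 316. In 76 of the 316 each of the 15 WY14643 arrays was on the called side of its day's vehicle mean. The counts of agreeing signs and of arrays on the called side were made among called genes alone, which the call itself favours. The fits with and without day 4 replicate 2 also share every other array.

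The largest rise was in Cyp4a14, a microsomal enzyme that hydroxylates fatty acids at their omega end. Its level in WY14643 kidneys was 12.03, 13.31, 12.41, 12.28 and 12.30 on day 4, 13.18, 12.77, 12.60, 12.60 and 12.23 on day 8, and 12.63, 12.65, 12.46, 12.70 and 13.01 on day 15. In vehicle kidneys the 30 levels ran from 5.26 through a median of 6.61 to 9.12. No WY14643 array overlapped with a vehicle array. The change was 5.76 ± 0.27, or 54.3-fold (adjusted p = 2.2e-27, limma), and it was 5.50, 5.71 and 6.08 on days 4, 8 and 15. Cyp4a genes are close in sequence, so probes for Cyp4a14 may also pick up its relatives. The related Cyp4a31 rose by 0.90 ± 0.12, with levels of 8.03 to 9.83 in WY14643 kidneys and 7.21 to 8.44 in vehicle kidneys. A second, dimmer probe set of Cyp4a31 was at -0.08 ± 0.94 and not called (adjusted p = 0.998), and the average of both was 0.41 (adjusted p = 0.921).

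Fabp1, the liver fatty acid-binding protein that carries fatty acids through the cytosol, rose by 2.73 ± 0.50 (adjusted p = 0.00022, limma). In WY14643 kidneys its levels were 6.87, 7.44, 8.68, 7.13 and 6.28 on day 4, 9.66, 12.08, 9.08, 12.04 and 7.67 on day 8, and 9.15, 8.62, 8.08, 9.27 and 8.28 on day 15. In vehicle kidneys they ran over 4.24 to 7.02, 3.96 to 7.93 and 3.29 to 9.01 on those days. All 15 WY14643 arrays lay above the same-day vehicle mean, but the groups overlapped on each day, and vehicle mice differed widely among themselves. Hepatocyte markers averaged 5.86 to 7.12 in WY14643 kidneys and 5.74 to 6.3 in vehicle kidneys on day 4. The 7.12 was that of replicate 2, and its markers went apart. There Fgg (12.5), Fgb (10.9), Apoc3 (11.3), Hpx, Cyp2e1 and Itih3 were above every vehicle kidney. The other markers, among them Alb (6.61) and Cps1 (2.19), were not. The part of hepatocyte RNA in the Fabp1 change of that day was not tested. Fabp1 is also abundant in hepatocytes, and 1 of the 2 highest arrays, day 8 replicate 4, had the highest mean of 14 hepatocyte markers (7.40, against 5.74 to 7.08 in vehicle kidneys). Its Alb level was 9.81, against 5.88 to 8.90 in vehicle kidneys, and the other high array, day 8 replicate 2, had an Alb level of 6.49. The part of hepatocyte RNA on day 8 was not tested either. Without day 8 replicate 4 the Fabp1 change was 2.57 (adjusted p = 0.000914), and without day 8 altogether it was 2.21 and not called (adjusted p = 0.0603).

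Retsat, retinol saturase, is an enzyme of retinoid metabolism. It rose by 1.06 ± 0.07 (adjusted p = 1.6e-18, limma). Its levels were 11.51 to 12.24 in WY14643 kidneys with a median of 11.73, and 10.29 to 11.23 in vehicle kidneys with a median of 10.70, with no overlap. Cox6b2, an isoform of a cytochrome c oxidase subunit known mainly from testis, rose by 1.48 ± 0.09 (adjusted p = 3.36e-22). Its lowest, median and highest levels were 7.57, 8.48 and 9.14 in WY14643 kidneys, against 6.59, 6.93 and 7.18 in vehicle kidneys, again with no overlap. Besides Cyp4a14, Retsat and Cox6b2, Ehhadh was the only other of the 4 called genes whose 15 WY14643 arrays all lay clear of the 30 vehicle arrays. Overlap was counted among called genes alone, so no share over all genes is given.

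Aldh1a1, an aldehyde dehydrogenase that makes retinoic acid, rose by 1.96 ± 0.33 (adjusted p = 4.09e-05). In WY14643 kidneys its levels were 9.19, 10.65, 10.33, 9.93 and 9.71 on day 4, 10.50, 8.39, 9.63, 9.79 and 7.16 on day 8, and 10.37, 10.12, 10.34, 10.21 and 10.08 on day 15. In vehicle kidneys they ran over 6.09 to 9.56, 5.54 to 9.17 and 6.14 to 9.37 on those days. The groups overlapped on days 4 and 8 and not on day 15, when the WY14643 arrays sat close together. The adjacent family member Aldh1a7 rose by 1.58 ± 0.36 (adjusted p = 0.00554), with 12 of 15 WY14643 arrays above the same-day vehicle mean. These paralogs are similar in sequence, and the array may not fully separate them. Reep6, an endoplasmic reticulum shaping protein, rose by 1.07 ± 0.13, with levels of 9.91 to 11.25 in WY14643 kidneys against 8.05 to 10.25 in vehicle kidneys. Gda, guanine deaminase of purine breakdown, rose by 1.02 ± 0.18. Shc3, a signalling adaptor, rose by 0.83 ± 0.09 in a dim range, 4.65 to 6.08 in WY14643 kidneys and 4.24 to 4.93 in vehicle kidneys. Zbtb16, a zinc finger transcription factor inducible by glucocorticoids, rose by 1.39 ± 0.22 (adjusted p = 8.18e-06). Its change was called on day 8 (2.44) and not on day 4 (1.10) or day 15 (0.63), and without day 8 it was 0.87 and not called (adjusted p = 0.114).

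**Figure D1:**
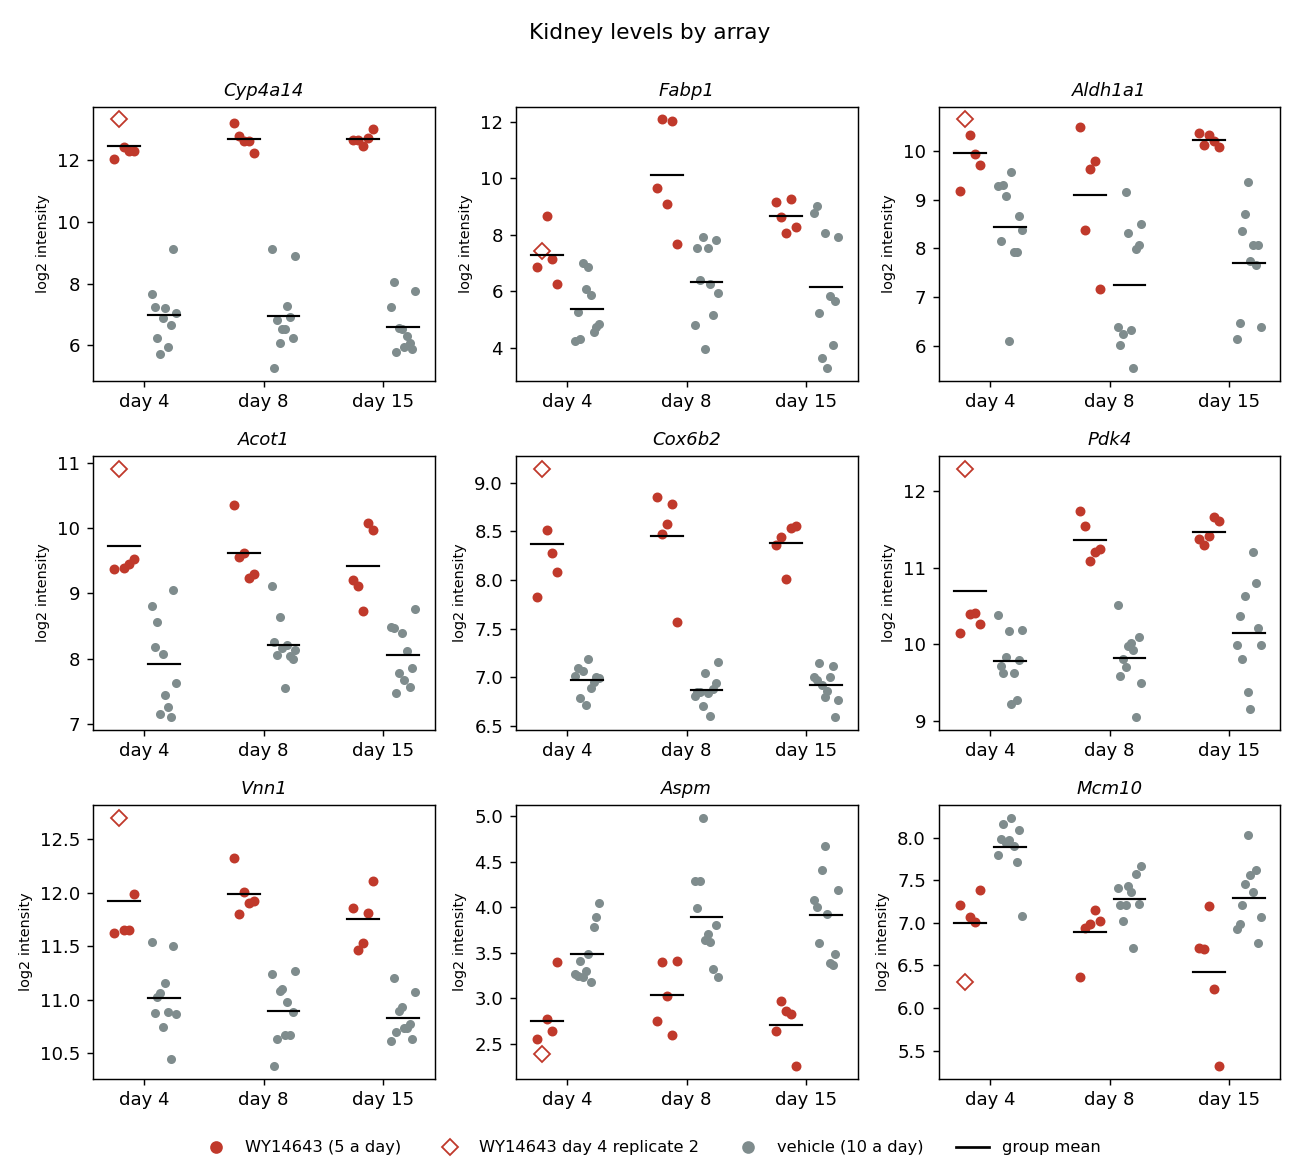
Log2 intensity of 9 genes in each kidney array on days 4, 8 and 15, with WY14643 left of vehicle, a line at each group mean and an open diamond for WY14643 day 4 replicate 2. Cyp4a14 and Cox6b2 do not overlap between WY14643 and vehicle, and Fabp1 overlaps on each day. The diamond is the highest WY14643 level of Cyp4a14, Aldh1a1, Acot1, Cox6b2, Pdk4 and Vnn1.

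A panel of PPAR target genes had 42 measured members. With WY14643, 25 of them rose, 0 fell and 17 were not called, where 0.923% of all genes rose. The panel and the gene lists below were chosen with earlier results of these data known. Their shares are set beside that of all genes as description and not as a test. The panel's median change was 0.28 and 39 members had a positive change. Without day 4 replicate 2, 23 rose and 0 fell, and Plin2 and Hsd17b4 were no longer called, and without GW501516 day 8 replicate 1, 26 rose and 0 fell. By day, 12, 19 and 14 members rose on days 4, 8 and 15, where 0.275%, 0.506% and 0.544% of all genes were called. Without replicate 2 the day 4 calls over all genes went from 50 to 17. The panel's day 4 count is not given without that array.

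Among the panel's acyl-CoA thioesterases, which split activated fatty acids, 3 of 4 rose. Acot1, the cytosolic form, had levels of 9.37, 10.91, 9.39, 9.45 and 9.53 on day 4 in WY14643 kidneys, where replicate 2 was the high one. Over the 3 days its lowest, median and highest levels were 8.73, 9.45 and 10.91 in WY14643 kidneys, against 7.11, 8.09 and 9.12 in vehicle kidneys. Acot1 rose by 1.52 ± 0.16 (adjusted p = 3.36e-11, limma), and by 1.42 without that array. Acot2, the mitochondrial form, rose by 0.65 ± 0.07, with levels of 10.27 to 11.35 in WY14643 kidneys and 9.64 to 10.54 in vehicle kidneys. Acot3, the peroxisomal form, rose by 1.35 ± 0.19, with levels of 7.37 to 9.82 in WY14643 kidneys and 6.33 to 8.96 in vehicle kidneys. Acot4 was not called (0.28 ± 0.09, adjusted p = 0.105). The Acot genes form a cluster of close paralogs, so their signals are not fully separable.

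Among genes that control fuel choice, Pdk4, the kinase that shuts off pyruvate oxidation, rose by 1.26 ± 0.14 (adjusted p = 6.88e-10, limma). On day 4 its WY14643 levels were 10.15, 12.29, 10.40, 10.41 and 10.26, so that replicate 2 stood far above the other 4. The vehicle levels that day ran over 9.22 to 10.38. On day 8 the WY14643 levels were 11.74, 11.54, 11.08, 11.20 and 11.24, against 9.05 to 10.51 in vehicle kidneys, with no overlap. On day 15 they were 11.37, 11.30, 11.41, 11.66 and 11.61, against 9.16 to 11.20, also without overlap. Without replicate 2 the Pdk4 change on day 4 was 0.52 and that of the mean over days was 1.12. Angptl4, a secreted inhibitor of lipoprotein lipase, rose by 1.14 ± 0.14 (adjusted p = 8.97e-09), with levels of 9.18 to 10.90 in WY14643 kidneys and 7.88 to 9.85 in vehicle kidneys. Its arrays were clear of vehicle on day 8 alone, at 9.74, 10.42, 10.30, 10.19 and 9.66, against 7.88 to 9.37. Vnn1, the pantetheinase vanin 1, rose by 0.98 ± 0.08 (adjusted p = 1.26e-15), with levels of 11.46 to 12.70 against 10.38 to 11.54. For Vnn1, 13 of the 15 WY14643 arrays lay above every vehicle array.

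Among the panel's peroxisomal genes, Ehhadh, the bifunctional enzyme of peroxisomal beta-oxidation, rose by 0.54 ± 0.05 (adjusted p = 4.69e-12). Its levels were 11.74 to 12.43 in WY14643 kidneys and 11.18 to 11.67 in vehicle kidneys, without overlap. Acaa1b, a peroxisomal thiolase, rose by 0.75 ± 0.06, with levels of 12.11 to 12.96 in WY14643 kidneys and 11.50 to 12.31 in vehicle kidneys. Its near copy Acaa1a was not called (0.05). Pex11a, which drives peroxisome division, rose by 0.35 ± 0.05, and Ech1, an enoyl-CoA isomerase, rose by 0.41 ± 0.04. Hsd17b4, the second peroxisomal bifunctional enzyme, rose by 0.17 ± 0.05 (adjusted p = 0.0452), and without day 4 replicate 2 it was 0.14 and not called (adjusted p = 0.171).

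The panel's mitochondrial dehydrogenases rose by small amounts. Acadl, for long chains, rose by 0.39 ± 0.05, with levels of 11.75 to 12.11 in WY14643 kidneys and 11.43 to 11.84 in vehicle kidneys. Acadvl, for very long chains, rose by 0.32 ± 0.04, and Acadm, for medium chains, rose by 0.13 ± 0.03 (adjusted p = 0.0275). Decr1, a reductase for unsaturated chains, rose by 0.32 ± 0.04. In the carnitine shuttle that brings fatty acids into mitochondria, Cpt2 (0.31 ± 0.06), the translocase Slc25a20 (0.31 ± 0.05), the carnitine acetyltransferase Crat (0.26 ± 0.04) and the carnitine importer Slc22a5 (0.20 ± 0.05) rose. Cpt1a, the gatekeeper of the shuttle in liver and kidney, was not called (0.03 ± 0.04, adjusted p = 0.933), with levels of 10.51 to 10.94 in WY14643 kidneys and 10.45 to 10.93 in vehicle kidneys.

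Of the panel's droplet coat proteins, Plin5, a form of oxidative tissues, rose by 0.47 ± 0.09 and Plin2 rose by 0.19 ± 0.05 (adjusted p = 0.0476), while Plin4 was not called (0.16, adjusted p = 0.904). Without day 4 replicate 2 Plin2 was 0.11 and not called (adjusted p = 0.133). Mogat1, which joins a fatty acid to monoacylglycerol, rose by 0.29 ± 0.04. The fatty acid transporter Cd36 (-0.06), the binding proteins Fabp3 (0.01) and Fabp4 (0.10), the hormone Fgf21 (0.12) and the droplet protein Cidec (0.20) were not called. The remaining panel genes were not called either: the fatty acid transporters Slc27a1 (0.28) and Slc27a2 (0.02), the omega-hydroxylase Cyp4a12a (-0.0028), the uncoupling protein Ucp3 (0.17), Txnip (0.20), the glycerol channel Aqp7 (0.06), the malic enzyme Me1 (0.03) and the transcription factor Creb3l3 (-0.06).

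**Figure D2:**
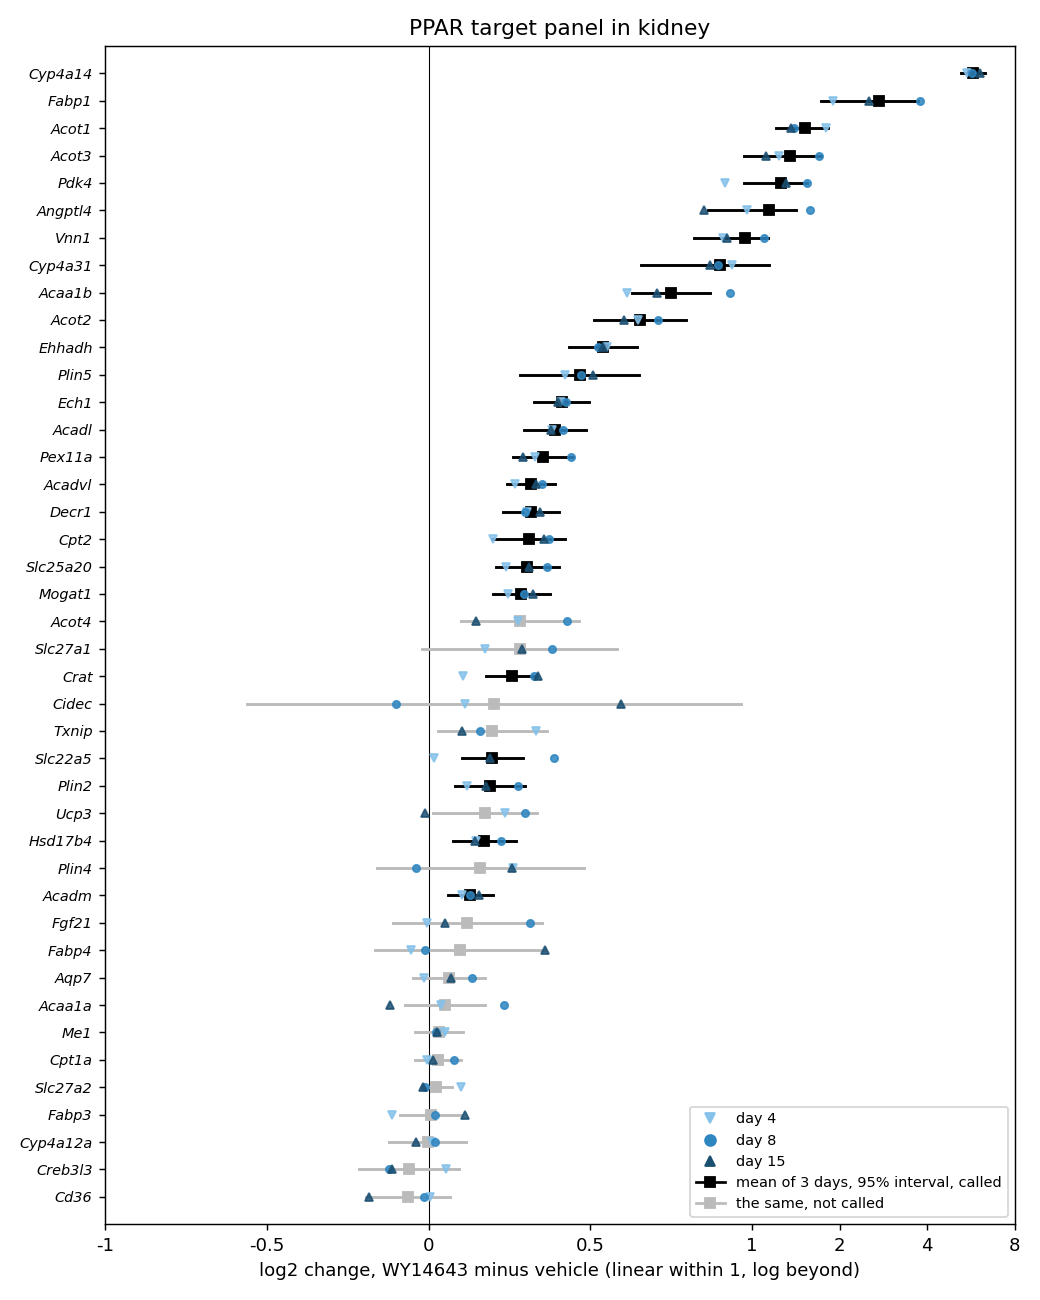
Log2 change in kidney, WY14643 minus vehicle, for the PPAR target panel (42 genes measured), with the mean over 3 days as squares (95% intervals) and each day as a small symbol, on an axis that is linear within 1 and logarithmic beyond. The 25 called genes all lie right of 0, from Cyp4a14 at 5.76 to Acadm at 0.13, and Cpt1a, Cd36 and Fabp4 lie near 0.

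Promoter sequence bears on the panel because the receptor's response element is a direct repeat of the hexamer AGGTCA with 1 base between, written AGGTCANAGGTCA. It was searched on both strands of RefSeq promoters (GRCm38.p6, 250 bases before to 50 after the gene's start), which were found for 14452 of the measured genes. With at most 1 mismatch, 81 promoters held it (0.56%), and with at most 2 mismatches, 574 did (3.97%). Of the 128 called higher genes with a promoter, 1 held it with at most 1 mismatch (0.781%) and 7 with at most 2 (5.47%). Of the 114 called lower genes these were 1 (0.877%) and 4 (3.51%). Of the 18 panel genes that rose and had a promoter, 4 held it with at most 2 mismatches (22.2%). A match describes letters in this window and not binding.

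The promoter with 1 mismatch was that of Fabp1, shown whole because Fabp1 had the second largest change. It lies on the plus strand at chr6:71199629-71199928, and the capitals mark the match, which reads on the opposite strand and begins 67 bases before the start.
Fabp1: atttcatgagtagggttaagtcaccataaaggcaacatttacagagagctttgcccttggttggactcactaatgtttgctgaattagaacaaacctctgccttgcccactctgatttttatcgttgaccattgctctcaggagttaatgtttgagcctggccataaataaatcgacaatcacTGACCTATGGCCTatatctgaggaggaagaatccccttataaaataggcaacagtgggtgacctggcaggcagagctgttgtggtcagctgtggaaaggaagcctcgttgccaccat

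The stretches around the match, with 2 mismatches, in the other 3 panel promoters are shown for comparison, each in the direction of its gene with the match in capitals. They are on the plus strand at chr1:78510979-78511051 for Mogat1, on the minus strand at chr4:86670242-86670309 for Plin2, and on the plus strand at chr9:108662112-108662184 for Slc25a20. The match begins 51 bases before the start in Mogat1, 225 before it in Plin2 and 6 after it in Slc25a20.
Mogat1: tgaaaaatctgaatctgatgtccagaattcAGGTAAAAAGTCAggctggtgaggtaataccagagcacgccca
Plin2: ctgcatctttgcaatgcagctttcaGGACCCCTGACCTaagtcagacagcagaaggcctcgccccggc
Slc25a20: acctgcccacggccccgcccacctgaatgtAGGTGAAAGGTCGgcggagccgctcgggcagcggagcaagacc

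Wider gene lists of fatty acid use share members with the panel, and each is read against the 0.923% of all genes that rose and the 0.813% that fell. In mitochondrial fatty acid oxidation 12 of 30 genes rose and 0 fell, with a list median of 0.027, and 7 of the 12 are not panel genes. Eci1, an isomerase for unsaturated chains, rose by 0.80 ± 0.07, with levels of 10.80 to 11.56 in WY14643 kidneys and 9.84 to 10.87 in vehicle kidneys. Acaa2, the mitochondrial thiolase, rose by 0.63 ± 0.08, with levels of 11.17 to 11.99 against 10.49 to 11.46. Both subunits of the trifunctional protein, Hadha (0.26) and Hadhb (0.21), and the electron transfer genes Etfdh (0.14) and Etfb (0.12) also rose. Without day 4 replicate 2 the counts were 12 and 0.

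In peroxisomal oxidation 10 of 45 rose, 4 of them outside the panel, and 1 fell, with a median of 0.051, and without day 4 replicate 2 these were 9 and 0. Without GW501516 day 8 replicate 1, 12 rose and 3 fell. Hacl1, the lyase of alpha-oxidation, rose by 0.50 ± 0.09, and Nudt7, a peroxisomal coenzyme A hydrolase, rose by 0.27 ± 0.05. Eci2, a peroxisomal isomerase, rose by 0.37 ± 0.04. The thioesterase Acot8 (0.26) rose and Pipox (-0.10), a peroxisomal oxidase of amino acid breakdown, fell. Among 16 genes of peroxisome biogenesis only Pex11a rose. Among 18 thioesterases and acyltransferases 5 rose and 0 fell, with Acnat2 (0.63 ± 0.14) beside the Acot genes. Of 30 genes of omega-oxidation and eicosanoid synthesis, Cyp4a14 and Cyp4a31 rose and 0 fell, and without day 4 replicate 2 Cyp2j11 (0.17, adjusted p = 0.026) was called as well.

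In uptake and activation of fatty acids 3 of 31 rose, 2 of them outside the panel, and 1 fell, and without day 4 replicate 2 these were 2 and 1. Acsl3, an acyl-CoA synthetase of lipid droplets, rose by 0.63 ± 0.08, with levels of 8.06 to 8.94 in WY14643 kidneys and 7.15 to 8.30 in vehicle kidneys. In lipid droplets and lipolysis 6 of 34 rose, 2 of them outside the panel, and 1 fell, and 5 and 0 without day 4 replicate 2. Mgll, the lipase for monoacylglycerol, rose by 0.77 ± 0.06 (adjusted p = 6.15e-16), with levels of 10.09 to 10.71 against 9.32 to 10.22 in vehicle kidneys. Of 9 ketone body genes 0 rose and 1 fell, the hydroxybutyrate dehydrogenase Bdh1 (-0.29 ± 0.06). Of 54 respiratory chain genes Cox6b2 and Ndufb8 (0.08) rose, and of 20 citrate cycle genes 0 were called.

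Some genes of lipid synthesis rose as well. In fatty acid synthesis 6 of 21 rose and 0 fell, with a median of 0.15. By day, 5 of the 21 rose on day 15, when 0.544% of all genes were called, and 0 on days 4 and 8. Scd1, stearoyl-CoA desaturase, had WY14643 levels of 11.31, 11.25, 11.44, 11.43 and 11.59 on day 4, 12.15, 12.31, 11.81, 11.59 and 12.48 on day 8, and 12.40, 12.62, 12.71, 12.46 and 12.56 on day 15. Its vehicle levels ran over 10.40 to 12.50, 10.20 to 12.08 and 10.83 to 12.50 on those days, so the groups overlapped on each day. Scd1 rose by 0.65 ± 0.15 (adjusted p = 0.00766, limma). The transcription factor Srebf1 rose by 0.31 ± 0.07 and was called on day 15 alone among the days, at 0.65. Acsf2 (0.57), Scd2 (0.36), Fads1 (0.30) and Elovl5 (0.14) also rose. Adipocytes also express these genes, and the mean of 6 adipocyte markers on day 15 was 6.55, 6.76, 6.31, 3.06 and 7.0 in WY14643 kidneys, against 3.28 to 7.31 with a median of 4.52 in vehicle kidneys. Replicate 4, the low one, had a Scd1 level of 12.46 and a Srebf1 level of 7.75. It is 1 array, and the part of adipocytes in these changes was not tested. With the first 2 components of clock gene levels as covariates, 2 of the 21 were called, and Scd1, Scd2, Srebf1 and Fads1 were not, with sizes of 0.54, 0.32, 0.26 and 0.28. Nor were these 4 genes called without day 15. With its probe sets averaged Scd2 was 0.29 and not called (adjusted p = 0.375, limma). Fads1 was not called without WY14643 day 8 replicate 1 (adjusted p = 0.0752) or with a block on the replicate number (adjusted p = 0.236).

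In cholesterol synthesis and LDL uptake 6 of 22 rose and 1 fell, with a median of 0.14, and 7 and 1 without day 4 replicate 2. Sqle, squalene epoxidase, rose by 0.43 ± 0.07, with levels of 8.05 to 9.18 in WY14643 kidneys and 7.88 to 8.69 in vehicle kidneys. Fdps (0.41) and Fdft1 (0.33), which make farnesyl diphosphate and squalene, Tm7sf2 (0.17), a sterol reductase, Stard4 (0.19), a cholesterol carrier, and Insig1 (0.27), a brake on the pathway that was not called without that array (adjusted p = 0.158), rose, while Nsdhl (-0.23), a later enzyme, fell. Without GW501516 day 8 replicate 1, 10 of the 22 rose and 1 fell. With the clock covariates 7 of the 22 rose and 0 fell.

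Genes of kidney transport are given against the 1.74% of all genes that were called. Of 42 proximal tubule transport genes 0 rose and 1 fell, and 0 and 0 without day 4 replicate 2, while without GW501516 day 8 replicate 1, when 3.4% of all genes were called, 3 rose and 3 fell. Of 29 distal ion transport genes 1 rose, the magnesium channel Trpm6 (0.39 ± 0.10), and of 43 water and acid-base genes 0 were called. Among 41 organic ion and drug transporters 2 rose and 6 fell, and without day 4 replicate 2 these were 2 and 2, with 19.5% of the list called in the fit of all arrays. Slc22a8, the organic anion transporter of the proximal tubule's blood side, fell by 0.35 ± 0.10 (adjusted p = 0.0434), with levels of 9.47 to 10.84 in WY14643 kidneys and 10.07 to 11.28 in vehicle kidneys, and it was not called without that array (-0.32, adjusted p = 0.116). The organic anion carriers Slc22a7 (-0.33) and Slco1a1 (-0.24), Slc22a18 (-0.14) and the phosphate and urate carrier Slc17a3 (-0.10) also fell and were not called without that array (adjusted p = 0.144, 0.0619, 0.122 and 0.173), and Slco3a1 (-0.17) fell with and without it. Abcc3, an export pump for conjugates, rose by 0.52 ± 0.10.

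Among 26 renin-angiotensin and kidney hormone genes 2 rose and 2 fell (15.4%), and 1 and 1 without day 4 replicate 2. Cyp27b1, which activates vitamin D, rose by 0.82 ± 0.20 (adjusted p = 0.00903), with levels of 5.91 to 8.33 in WY14643 kidneys and 4.70 to 7.67 in vehicle kidneys. Its size was 0.11, 1.25 and 1.12 on days 4, 8 and 15, none of them called, and with the clock covariates it was 0.69 and not called (adjusted p = 0.102). Cyp24a1, which inactivates vitamin D, rose by 0.80 ± 0.22 (adjusted p = 0.0415) and was not called without day 4 replicate 2 (adjusted p = 0.0944). Ace, the angiotensin converting enzyme, fell by 0.29 ± 0.07, and Mas1, a receptor for an angiotensin fragment, fell by 0.56 ± 0.15 and was not called without that array (adjusted p = 0.139).

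**Figure D3:**
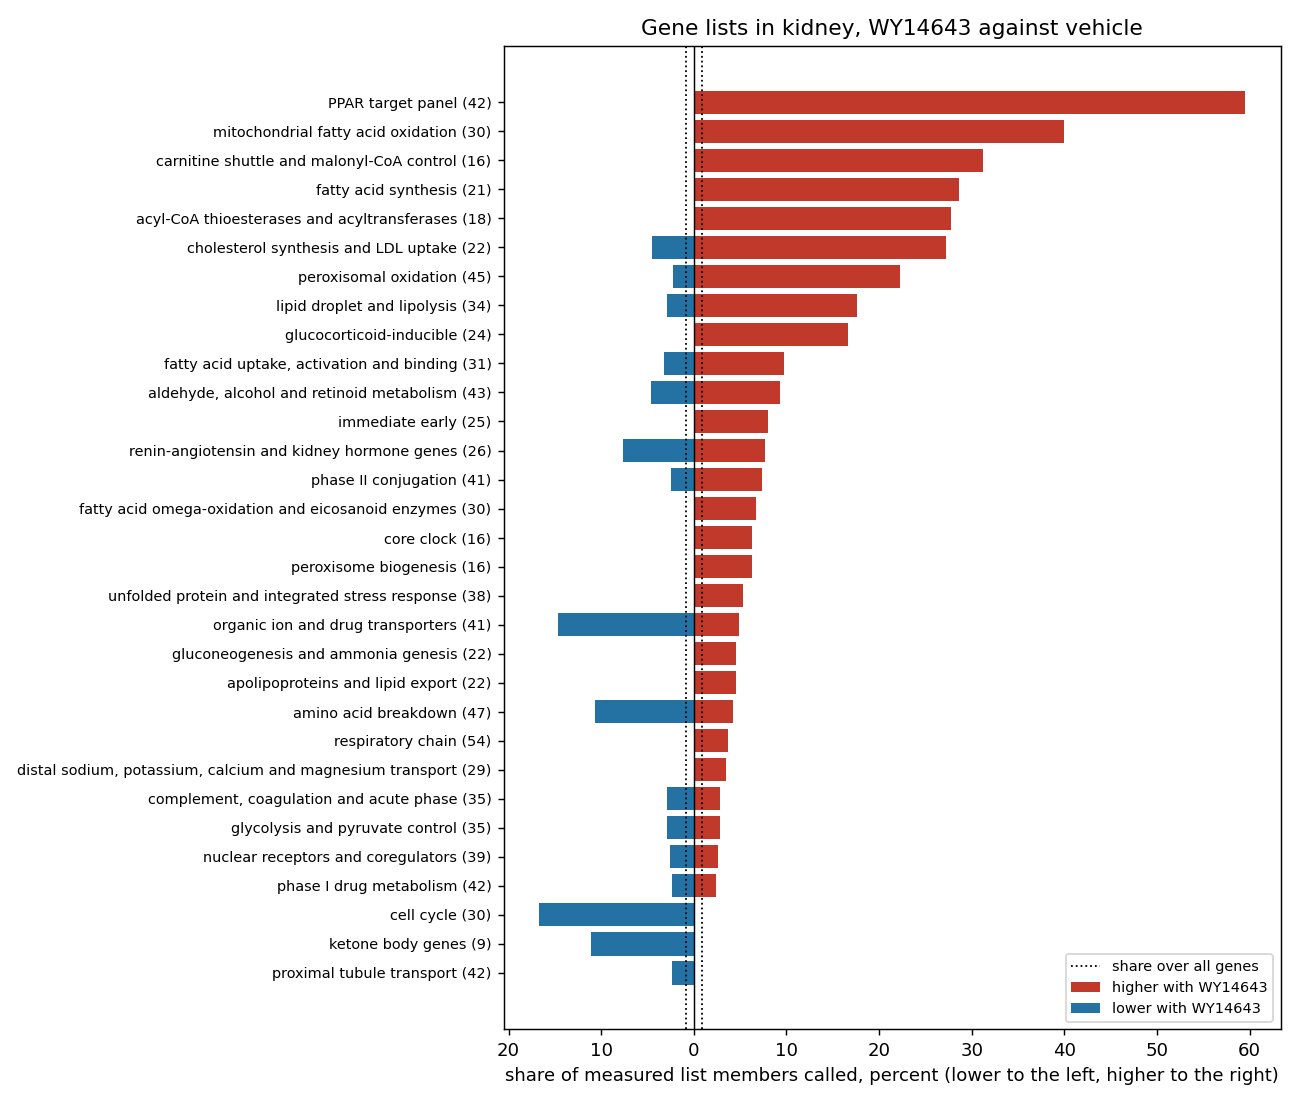
Share of the measured members of each gene list that was called in kidney, mean over 3 days, in percent, with genes lower in WY14643 kidneys to the left and genes higher to the right, and dotted lines at the shares over all genes (0.813% and 0.923%). Lists with 0 called genes are not drawn, and the PPAR target panel, with 25 of 42 genes higher, has the longest bar.

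The largest falls were smaller than the largest rises. Aspm, a spindle protein of dividing cells, fell by 0.93 ± 0.12 (adjusted p = 6.39e-08, limma). Its lowest, median and highest levels were 2.25, 2.77 and 3.41 in WY14643 kidneys, against 3.18, 3.67 and 4.99 in vehicle kidneys, all in the dim range of the array. Mcm10, needed to start DNA replication, fell by 0.72 ± 0.11, with levels of 5.32 to 7.39 in WY14643 kidneys and 6.70 to 8.23 in vehicle kidneys. For both genes each of the 15 WY14643 arrays was under the mean of its day's vehicle arrays.

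A cell cycle list had 0 of 30 genes higher and 5 lower (16.7%, where 0.813% of all genes fell), with a median of -0.092. Ccnb2 (-0.50) and Ccna2 (-0.43), the mitotic and S-phase cyclins, and the proliferation marker Mki67 (-0.43), the kinase Cdk1 (-0.36) and the thymidine kinase Tk1 (-0.25) were the 5. Without day 4 replicate 2 only Ccna2 and Ccnb2 were called, with the clock covariates 3 were, and without GW501516 day 8 replicate 1, 8 were.

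Sec14l3, a lipid-binding protein, fell by 0.76 ± 0.11, with levels of 7.37 to 8.52 in WY14643 kidneys and 8.10 to 9.30 in vehicle kidneys. Olfm4, a secreted glycoprotein, fell by 0.61 ± 0.09, with levels of 7.17 to 8.46 against 7.92 to 9.15. Upp2 (-0.59), a uridine phosphorylase, Inhbb (-0.55), the inhibin beta B subunit, and Macrod1 (-0.44), a mitochondrial ADP-ribose hydrolase, fell as well. Macrod1 lay below every vehicle array in 10 of the 15 WY14643 arrays, and its lowest level, 8.13, was that of day 4 replicate 2.

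The other large falls were of genes with varied roles. C1qtnf3, a secreted relative of adiponectin, fell by 0.58 ± 0.08 (adjusted p = 1.41e-06), with levels of 7.67 to 9.31 in WY14643 kidneys and 8.89 to 9.59 in vehicle kidneys. Mdk, the growth factor midkine, fell by 0.44 ± 0.07 (adjusted p = 3.52e-06), with levels of 9.29 to 9.96 against 9.38 to 10.73. The collagen Col19a1 (-0.62), the phosphatase family member Mtmr7 (-0.58), the claudin Cldn18 (-0.52) and Itih2 (-0.53), a hyaluronan-binding plasma protein chain, fell and were called without day 4 replicate 2 too. Meig1 (-0.56), a spermatogenesis gene, and Esco2 (-0.44), an acetyltransferase of sister chromatid cohesion, were dim and were not called without that array (adjusted p = 0.103 and 0.056).

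In amino acid breakdown 2 of 47 genes rose (4.26%, where 0.923% of all genes rose) and 5 fell (10.6%, where 0.813% fell), and 0 and 4 without day 4 replicate 2. Kmo, the kynurenine hydroxylase of tryptophan breakdown, fell by 0.32 ± 0.04 (adjusted p = 1.07e-09). Its WY14643 levels were 9.70, 9.80, 9.91, 9.70 and 9.54 on day 4, 9.41, 9.49, 9.72, 9.54 and 9.80 on day 8, and 9.25, 9.37, 9.64, 9.49 and 9.53 on day 15. Vehicle levels ran over 9.67 to 10.03, 9.74 to 10.15 and 9.72 to 10.04, so the groups overlapped on days 4 and 8 and were apart on day 15. Kmo was not called on day 4 (-0.15) and fell by 0.37 on day 8 and by 0.45 on day 15. Afmid (-0.27) and Haao (-0.19), enzymes of the same pathway on either side of Kmo, also fell. Arg2, the mitochondrial arginase, rose by 0.71 ± 0.18 with day 4 replicate 2 and was 0.61 and not called without it (adjusted p = 0.0639).

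The remaining lists are likewise read against the 1.74% of all genes called. Of 43 genes of aldehyde, alcohol and retinoid metabolism 4 rose and 2 fell (14%), and 4 and 1 without day 4 replicate 2. Of 41 conjugation genes 3 rose and 1 fell (9.76%), and of 42 phase I drug metabolism genes 1 rose and 1 fell (4.76%). Cyp2d9, a hydroxylase of the phase I list, rose by 0.71 ± 0.14, with levels of 9.59 to 11.51 in WY14643 kidneys and 8.51 to 10.23 in vehicle kidneys, while the carboxylesterase Ces1f fell by 0.23 ± 0.05. The glutathione transferases Gstm7 (0.33) and Gstt2 (0.22) and the sulfotransferase Sult1a1 (0.38) rose, and Acsm1 (-0.24), which activates acids for conjugation to glycine, fell. Among retinoid genes the reductase Dhrs4 rose by 0.17 ± 0.03, and the alcohol dehydrogenase Adh1 (-0.18) fell. Akr1c14 (-0.20), a steroid reductase, fell and was not called without day 4 replicate 2 (adjusted p = 0.107). In a list of 24 glucocorticoid-inducible genes 4 rose (Zbtb16, Pdk4, Angptl4 and Sult1a1) and 0 fell, with a median of 0.15, or 0.084 without day 4 replicate 2. Of these Pdk4 and Angptl4 are also panel genes. Of 25 immediate early genes Myc (0.53) and Klf4 (0.23) rose, and Klf4 was not called without day 4 replicate 2 (adjusted p = 0.0824). Of 38 genes of the unfolded protein and integrated stress response 2 rose, Psat1 (0.44) and Hyou1 (0.22), and 0 without that array. Of 39 nuclear receptor and coregulator genes Esr1 (-0.31), the estrogen receptor, fell and Esrrb (0.32), an orphan receptor, rose, the second not without that array (adjusted p = 0.101). Of 22 genes of gluconeogenesis Fbp2 (0.40), a fructose bisphosphatase, rose, and of 22 apolipoprotein and lipid export genes the cholesterol exporter Abcg1 (0.30) rose. Of 35 glycolysis genes Pdk4 rose and Pfkfb4 (-0.30), which sets a glycolytic activator, fell, the second not without that array (adjusted p = 0.0944). Of 16 core clock genes Cry1 rose (0.46), a mean of day changes that differed in sign and are given below. It was 0.10 and not called with the clock covariates, which are built from clock gene levels and so remove a clock gene's own change by construction. By day, 0, 2 and 1 of the 16 rose and 1, 2 and 0 fell on days 4, 8 and 15. Of all genes 0.275%, 0.506% and 0.544% were called on those days.

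Without GW501516 day 8 replicate 1, when 3.4% of all genes were called, several counts of these and earlier lists changed. Aldehyde, alcohol and retinoid metabolism then had 4 higher and 5 lower genes, conjugation 3 and 3, phase I drug metabolism 2 and 2, glycolysis 2 and 2, gluconeogenesis 3 and 0, nuclear receptors 1 and 2, water and acid-base transport 1 and 1, uptake of fatty acids 4 and 2, mitochondrial oxidation 12 and 1, and the citrate cycle 1 and 0.

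Lists of NRF2 and oxidative stress (26 genes), heat shock chaperones (25), kidney injury (25), extracellular matrix (32) and interferon response (23) had 0 called genes. At a share of 1.74%, lists of this size would hold under 1 called gene on average, so nothing is read from these counts, and without GW501516 day 8 replicate 1 kidney injury had 2 called genes and NRF2 had 1. Among the cell type markers 5 genes were called, where 1.74% of all genes were. They were Csf1r (-0.37) and Cd14 (0.42) of 10 macrophage markers, Slc22a8 of 18 proximal tubule markers, Trpm6 of 5 distal convoluted tubule markers and the claudin Cldn10 (-0.12) of 7 loop of Henle markers. The other marker lists had 0 called genes, and nothing is read about cell types from this count. Cd14 was at 9.92 in day 4 replicate 2, against at most 8.28 in the other WY14643 kidneys, and without that array it rose by 0.27 (adjusted p = 0.0114, limma), while Csf1r fell by 0.32 (adjusted p = 0.0277). Cldn10 was not called without day 4 replicate 2 (adjusted p = 0.146), and neither was Slc22a8. The macrophage list as a whole had 1 higher and 1 lower of 10 genes, and its mean ran over 6.52 to 7.85 in WY14643 kidneys, or to 7.3 without day 4 replicate 2, and 6.45 to 7.78 in vehicle kidneys.

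Day by day, 50 genes were called on day 4 (0.275%), 92 on day 8 (0.506%) and 99 on day 15 (0.544%), with 35, 60 and 73 of them higher. Without replicate 2, day 4 had 17 calls, 15 higher and 2 lower. Without GW501516 day 8 replicate 1 62, 80 and 129 genes were higher and 57, 58 and 56 lower on days 4, 8 and 15. In all, 19 genes were called on all 3 days, or 11 without day 4 replicate 2, and 37, 75 and 74 of the calls of the days were also called for the mean. Day 15 minus day 4 gave 4 genes (0.022%) whose change itself differed, Cry1, Cry2, Ier3 and Mylip, with 924 genes at an unadjusted p under 0.05.

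Cry1, a repressor of the circadian clock, was the largest of these. Its WY14643 levels were 5.24, 6.0, 6.14, 5.91 and 6.53 on day 4, against 5.74 to 7.59 in vehicle kidneys with a median of 6.62. On day 8 they were 6.37, 6.98, 6.37, 6.27 and 6.81, against 4.87 to 5.93, and on day 15 they were 6.61, 6.64, 7.05, 6.47 and 6.84, against 4.87 to 6.31. On day 4 each WY14643 array lay below the vehicle median, and on days 8 and 15 each lay above every vehicle array of the day, with changes of -0.69, 1.11 and 0.96. The difference between days 15 and 4 was 1.65 ± 0.29 (adjusted p = 0.00354, limma). Its relative Cry2 had changes of -0.48, 0.31 and 0.29 and a difference of 0.78, and the stress-response gene Ier3 had changes of -0.71, 0.12 and 0.61 and a difference of 1.31. With the clock covariates 0 genes differed between days 15 and 4, and as Cry1 and Cry2 are themselves clock genes, their loss follows from how the covariates were made. Times of day of tissue collection were not given in the sources used here, and their part in these differences was not tested.

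GW501516 and rosiglitazone were given at the same dose on the same days, and their kidneys were compared with WY14643 kidneys directly, although all 3 compounds share the vehicle arrays for their own changes. Between WY14643 and GW501516, 244 genes differed (1.34%), 85 higher and 159 lower with WY14643. Without GW501516 day 8 replicate 1, 365 differed (2.01%), 121 higher and 244 lower. Within the panel 2 of 42 members were called with the higher value under WY14643 and 5 with the higher value under GW501516, and 2 and 6 without that array. Cyp4a14 changed by 5.76 with WY14643 and 3.78 with GW501516, a difference of 1.98 (95% interval 1.36 to 2.61, adjusted p = 7.11e-05, limma). Cox6b2 changed by 1.48 with WY14643 and 0.62 with GW501516, Reep6 by 1.07 and 0.17, Shc3 by 0.83 and -0.09, and Aldh1a1 by 1.96 and 0.38, and each difference was called.

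Of 16 carnitine shuttle genes 4 were lower with WY14643 than with GW501516, 0 were higher and 12 were not called, and without GW501516 day 8 replicate 1 these were 5 lower and 0 higher. Cpt1a changed by 0.03 with WY14643 and 0.35 with GW501516 (difference -0.32, interval -0.40 to -0.24, adjusted p = 2.06e-07). Cpt2, Slc25a20 and Slc22a5 also rose less with WY14643, with differences of -0.25, -0.22 and -0.20. Atp12a, a proton-potassium pump, had the largest difference: it changed by -0.53 with WY14643, which was not called, and by 1.88 with GW501516 (difference -2.41, interval -2.87 to -1.95). Inhbb changed by -0.55 and 0.47. For Acot1 (difference -0.16, interval -0.52 to 0.20), Acaa1b (-0.01, -0.15 to 0.13) and Fabp1 (1.04, -0.12 to 2.20) no difference between WY14643 and GW501516 was called. GW501516 day 4 replicate 4 also carried acinar markers, with a mean of 7.03, and without both such arrays 180 genes differed. Without these and GW501516 day 8 replicate 1, 343 differed, and the differences named here as called kept their sign and call, Aldh1a1 at 1.48 (adjusted p = 0.0389).

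Between WY14643 and rosiglitazone, 355 genes differed (1.95%), 152 higher and 203 lower with WY14643, and 674 did without GW501516 day 8 replicate 1. Of the 42 panel genes 16 were higher with WY14643 and 1 was lower. Cyp4a14 changed by 5.76 with WY14643 and -0.22 with rosiglitazone, a difference of 5.98 (interval 5.36 to 6.61). Acot1 differed by 1.47, Pdk4 by 0.87, Vnn1 by 0.82 and Ehhadh by 0.50. Cpt1a was the panel gene that was lower with WY14643 (-0.15, adjusted p = 0.0345). Angptl4, which changed by 1.14 with WY14643 and 0.79 with rosiglitazone, showed no called difference (0.35, interval 0.03 to 0.67, adjusted p = 0.391). Outside the panel, Fgf18, a growth factor, changed by -0.19 with WY14643 and 0.89 with rosiglitazone, a called difference of -1.09.

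**Figure D4:**
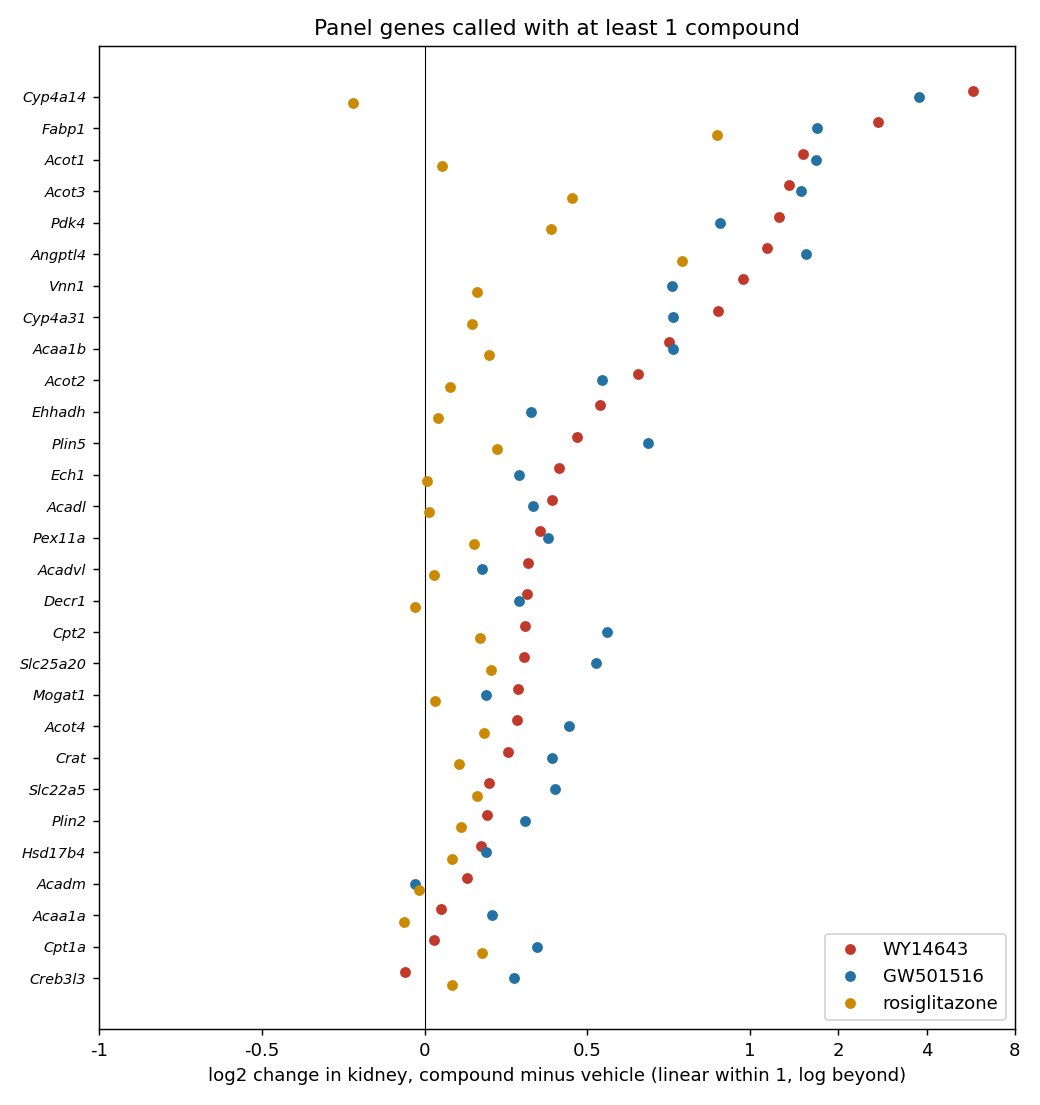
Log2 change in kidney against vehicle with WY14643, GW501516 and rosiglitazone for the panel genes called with at least 1 compound, mean over 3 days, on an axis that is linear within 1 and logarithmic beyond. Cyp4a14 lies at 5.76 with WY14643, 3.78 with GW501516 and -0.22 with rosiglitazone, and Cpt1a lies at 0.03, 0.35 and 0.18.

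With WY14643, 25 of the 42 panel genes rose in kidney, where 0.923% of all genes rose. In the livers of the same mice 29 rose, where 5.51% did. These shares over all genes differ and the panel was chosen with earlier results known, so the counts are not compared. The difference of the changes was computed within each mouse, and 854 of all genes differed (4.69%), 364 with a higher and 490 with a lower value in kidney than in liver. Of the panel, 4 genes had a higher value in kidney and 14 a lower one. Cyp4a14 changed by nearly the same amount, 5.76 in kidney and 5.67 in liver, and the difference of 0.09 had an interval of -0.85 to 1.03. Retsat changed by 1.06 in kidney and 1.05 in liver, with an interval of -0.17 to 0.18 for the difference.

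The 4 genes with a higher value in kidney were Fabp1 (2.73 in kidney and -0.02 in liver), Angptl4 (1.14 and 0.10), Pdk4 (1.26 and 0.55) and Acaa1b (0.75 and 0.35). The Pdk4 difference had the highest adjusted p of the 4 (0.0262, limma). Pdk4 was at 12.3 in kidney day 4 replicate 2, against at most 10.4 in the other WY14643 kidneys of that day. Without that array the Pdk4 change in kidney was 1.12, and its difference from liver is not given. Genes with a far lower value in kidney were Mogat1 (0.29 in kidney and 4.37 in liver), Vnn1 (0.98 and 3.88), Cd36 (-0.06 and 2.46), Cyp4a31 (0.90 and 3.38) and Fabp4 (0.10 and 1.97). The thioesterases Acot1 (1.52 and 2.71), Acot2 (0.65 and 2.32) and Acot3 (1.35 and 3.16), and Ehhadh (0.54 and 1.89), rose in both organs and less in kidney. Outside the panel, Aldh1a1 changed by 1.96 in kidney and 0.13 in liver, and Cox6b2 by 1.48 and 3.15. Ptgds, a prostaglandin D synthase, changed by -0.20 in kidney and -2.70 in liver, and Rad51b, a DNA repair gene, by -0.13 and 3.02. Without day 4 replicate 2, 682 genes differed between the organs, and without GW501516 day 8 replicate 1, 1161 did.

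**Figure D5:**
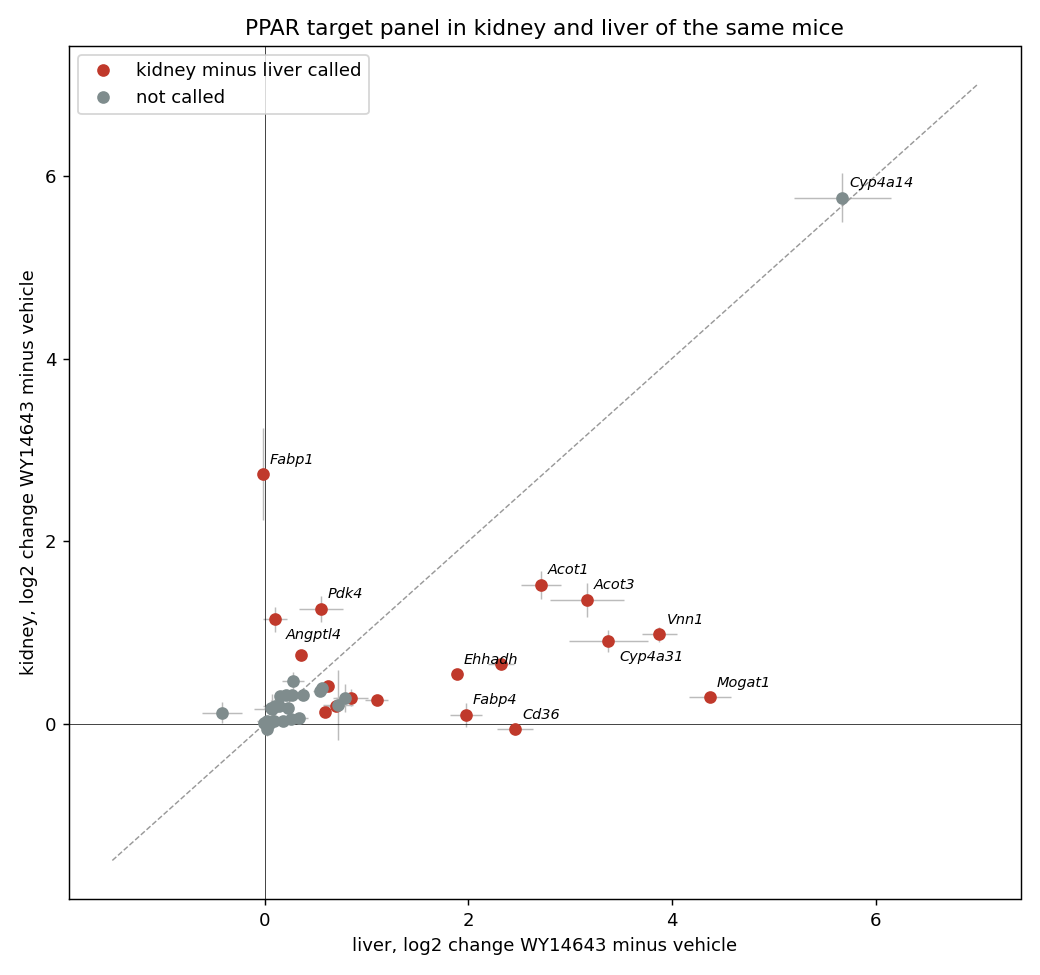
Log2 change with WY14643 in kidney (vertical) against liver (horizontal) of the same mice for the 42 panel genes, mean over 3 days, with standard errors as bars, a dashed line of equal change and red points where the difference was called. Fabp1, Angptl4, Pdk4 and Acaa1b lie above the line, Cyp4a14 lies on it, and Mogat1, Vnn1 and Cd36 lie far below.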

How the data were processed

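The deposited table holds log2 intensities of 45101 probe sets of an Affymetrix mouse expression array, made by the authors with RMA in Partek, per the submitters' processing notes, which state no version. Per the labels' protocols, RNA came from a Qiagen miRNeasy kit with DNase treatment, and 100 ng of it was amplified and labelled with NuGEN reagents. The deposited log2 values were used as they stand. Median levels of the kidney arrays ran over 5.05 to 5.38. 0 arrays were left out of the reported comparisons, and 0 columns were identical. Dates and batches of arrays were not used here.

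Each of 18193 genes was represented by the brightest, on average over the 300 arrays, of the 34945 probe sets that name 1 gene. Dim genes were kept, and 41 of the called genes lay in the dimmest 40 percent. Among called genes, 0 had another probe set called the opposite way. All 75 kidney arrays were fitted as 12 group means in limma 3.58.1 (R 4.3.3) by lmFit and eBayes with an intensity trend, leaving 63 residual degrees of freedom. Differences between days and compounds were contrasts of this fit. The difference from liver was fitted on kidney minus liver values within each mouse, since the same mouse number in the labels was taken as the same animal. P-values are two-sided and adjusted by Benjamini-Hochberg over all genes of a comparison. The replicates are separate mice, and their number, 5 treated and 10 vehicle a day, limits the precision.

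The members, gene lists, panel and alternatives were chosen with earlier results of these data known. Of 1294 list entries, 1179 were measured; the rest are not analysed here. Genes were named by this rule: the 15 highest and 15 lowest called changes, provided that 14 or more of the 15 WY14643 arrays lay on that side of their day's vehicle mean and the gene was no predicted one; all panel genes; called members and up to 4 largest changes of each list described; called panel genes and up to 6 others each way for each difference; and marker genes. Not every gene that the rule admits is printed. Genes whose unadjusted p alone was under 0.05 numbered 1780 for the mean over days.

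Alternatives left out each WY14643 and vehicle array and each day, blocked on the replicate number, fitted WY14643 and vehicle arrays alone, dropped the intensity trend, weighted arrays, normalized again by quantiles or array medians, chose or averaged probe sets otherwise, dropped dim genes, and added the first 2 components of clock gene levels as covariates. Leaving out each GW501516 and rosiglitazone array, and sets of the arrays that stood apart, was added after seeing the data.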

Additional observations from a re-analysis of the deposited data

Results flagged for a closer look

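In groups of 5 or 10 arrays, 288 sets of values were screened for an array far from its group, and 32 were found (11.1%). Chance flags about 1 in 20 groups where the sets are independent, which these are not, and 8 of the 32 lie in WY14643 day 4 replicate 2. Among WY14643 day 4 kidneys, replicate 2 was far from the other 4 for Acot1 (10.9), Pdk4 (12.3), Retsat (12.2), Cyp4a31 (9.83), Col19a1 (4.39), Macrod1 (8.13), the pancreatic acinar markers (10.5) and the neutrophil markers (5.57). On that day Mdk was far from the rest in replicate 1 (9.5) and the podocyte markers in replicate 5 (7.39).

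Among WY14643 day 8 kidneys, replicate 1 stood apart for Mcm10 (6.37), Upp2 (6.79), Inhbb (5) and the neutrophil markers (4.22), replicate 4 for the hepatocyte markers (7.4) and replicate 5 for Sec14l3 (8.31). Among WY14643 day 15 kidneys, replicate 4 stood apart for the adipocyte (3.06) and skeletal muscle markers (4.22), replicate 5 for Cyp4a31 (9.09), replicate 3 for the loop of Henle markers (10.5) and replicate 1 for the intercalated cell markers (7.29).

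Among vehicle kidneys, single arrays stood apart on day 4 for Aldh1a1 (6.09), Zbtb16 (7.02), Mcm10 (7.08), Itih2 (8.14) and the skeletal muscle markers (4.65). On day 8 they did so for Cldn18 (5.3) and the pancreatic acinar markers (4.53), and on day 15 for Reep6 (8.05), Retsat (11.2), Itih2 (5.85) and Mdk (10.7).

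The change with WY14643 differed between days 15 and 4 for Cry1 (1.65), Cry2 (0.778), Ier3 (1.31) and Mylip (1.12). It differed between kidney and liver, as kidney minus liver, for 18 panel genes: Fabp1 (2.75), Angptl4 (1.04), Pdk4 (0.71), Acaa1b (0.4), Ech1 (-0.207), Acadm (-0.464), Slc22a5 (-0.498), Acot4 (-0.558), Crat (-0.84), Acot1 (-1.19), Ehhadh (-1.35), Acot2 (-1.67), Acot3 (-1.81), Fabp4 (-1.88), Cyp4a31 (-2.48), Cd36 (-2.52), Vnn1 (-2.9) and Mogat1 (-4.08).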

How the results depend on the processing

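Of 142 named genes that were followed, 125 were called for the mean over 3 days, 46 of these under every alternative run, 79 lost the call under at least 1, and 0 changed sign while called. Always called were, among others, Cyp4a14, Acot1, Cox6b2, Retsat, Vnn1, Ehhadh, Pdk4, Angptl4, Mgll, Aspm and Kmo. Most calls were lost without day 15 (63), without day 8 (50), with clock components as covariates (40) and without day 4 (36). Leaving out WY14643 day 4 replicate 2, day 8 replicate 1 or day 15 replicate 5 lost 28 each. The causes were not tested.

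The count for the mean over days, 316, became 175 without day 8, 104 without day 15, 509 with WY14643 and vehicle arrays only, 634 with array weights and 45 at 1.5-fold or more. With array weights, calls numbered 191 on day 8, 355 on day 15, 11 for day 15 minus day 4, 574 for WY14643 minus GW501516 and 894 for WY14643 minus rosiglitazone. With clock covariates they numbered 26 on day 8, 58 on day 15 and 0 for day 15 minus day 4. At 1.5-fold or more, 26, 40 and 58 remained for days 4, 8 and 15, 26 for WY14643 minus GW501516, 56 for WY14643 minus rosiglitazone and 228 for kidney minus liver.

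Each of the 75 kidney arrays was left out in turn, the GW501516 and rosiglitazone arrays by a choice made after seeing the data. Calls for the mean over days ran over 222 to 619, lowest without WY14643 day 4 replicate 2. GW501516 day 8 replicate 1 gave the highest count of each comparison but WY14643 minus GW501516. Day 4 ran over 17 to 76 over the 45 WY14643 and vehicle arrays, lowest without its WY14643 replicate 2 and highest without its replicate 3. Over the other 30 arrays day 4 had 35 to 62 higher and 14 to 57 lower genes, the highest of both without GW501516 day 8 replicate 1. Day 8 ran over 58 to 138, lowest without WY14643 replicate 2, and day 15 over 55 to 185, lowest without WY14643 replicate 5. WY14643 minus GW501516 ran over 141 to 540, lowest without WY14643 day 15 replicate 5 and highest without GW501516 day 8 replicate 2. Its count was also moved by over 1.5 times without WY14643 day 15 replicate 3 (371) or day 8 replicate 1 (158) or 2 (153), and without GW501516 day 4 replicate 1 (149), day 8 replicate 3 (372) or 5 (377), or day 15 replicate 1 (415) or 5 (151). The ranges were 3 to 8 for day 15 minus day 4, 272 to 674 for WY14643 minus rosiglitazone and 682 to 1161 for kidney minus liver.

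Replicate numbers were shared between groups. Deviations of same-numbered WY14643 and vehicle arrays correlated at -0.126 to 0.183 over 15 pairs, with 2 over 0.1, and the main fit used no pairing. A batch shared by same-numbered arrays was not tested. Blocking on the number lost 31 of the 125 followed calls, and the day 4 count went from 50 to 33. With a replicate block, 284 genes were called for the mean over days, 33 on day 4, 114 on day 8, 5 for day 15 minus day 4, 225 for WY14643 minus GW501516, 365 for WY14643 minus rosiglitazone and 667 for kidney minus liver, and on day 15 the count moved by less than 1.5 times.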

Other observations

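Adipocyte markers varied widely between mice, over 3.06 to 7.0 in WY14643 kidneys and 3.23 to 7.31 in vehicle kidneys, and on day 15 their median was 6.55 in WY14643 kidneys and 4.52 in vehicle kidneys. Of the 6 genes 0 were called (limma), and their part in the results of day 15 was not tested. Serpina6, the corticosteroid-binding globulin, was dim and rose by 0.78 ± 0.15 (adjusted p = 0.000653, limma), with all 15 WY14643 arrays above the same-day vehicle mean, and by 0.69 without WY14643 day 4 replicate 2 (adjusted p = 0.00415). It is a known product of hepatocytes, whose markers on day 4 had a median of 6.54 in WY14643 kidneys and 5.91 in vehicle kidneys, and their part in its change was not tested. Apcs, the serum amyloid P component, rose by 0.65 ± 0.18 (adjusted p = 0.0338), with its highest level, 5.66, in WY14643 day 4 replicate 2, and it was not called without that array (adjusted p = 0.12).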
